A study of Homo sapiens with 12 samples.

Results

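The replication-dependent histone genes encode the linker histone H1 and the core histones H2A, H2B, H3 and H4 that package newly made DNA. Members were the rows of the deposited count table named H1-1 to H1-5, or H2AC, H2BC, H3C or H4C followed by a number. The rule uses names only and gave 64 of 43557 rows, namely 5 H1, 16 H2A, 17 H2B, 13 H3 and 13 H4 genes. RNA was sequenced from 12 libraries of the human bladder cancer cell lines T24 and RT4, in 4 groups of 3 libraries. In each line, 3 libraries were labelled shFTO, a short hairpin RNA knockdown of FTO, an RNA demethylase that removes the N6-methyladenosine mark, and 3 labelled shNC, with no treatment in the labels, were the controls. All groups were sequenced from poly(A)-selected RNA. The labels do not give the hairpin sequence, whether a line was 1 clone or a pool, or whether the 3 libraries of a group were separate cultures. The p-values therefore rest on library-to-library spread, which may be technical.

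Replication-dependent histone genes lie in clusters, lack introns as a rule, and are transcribed during S phase, when the cell copies its DNA. Their messenger RNAs are the known exception among animal mRNAs in ending not with a poly(A) tail but with a short stem-loop, which is bound by the stem-loop binding protein SLBP and cut downstream with the help of the U7 snRNP. Some members are also known to give longer, polyadenylated transcripts in differentiated cells. A poly(A)-selected library keeps tailed transcripts, so the counts below cover the tailed part of each gene's RNA and untailed RNA carried over. Fewer transcripts and a smaller tailed share of them cannot be told apart in these data.

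The stem-loop is shown for 5 members whose levels are described below, because it is the end that poly(A) selection does not capture. A search of the GENCODE release 29 transcripts for the letters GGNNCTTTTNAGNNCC, on the transcript strand, found them in 28 of the 60 members with a transcript there. The sequences run 5′ to 3′ as DNA, and capitals mark the 16 bases of the stem-loop with 5 flanking bases on each side.
H2AC6: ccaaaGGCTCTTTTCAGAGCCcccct
H2BC5: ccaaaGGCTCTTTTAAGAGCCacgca
H2BC21: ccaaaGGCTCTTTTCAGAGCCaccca
H4C8: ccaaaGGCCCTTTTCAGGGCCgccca
H4C14: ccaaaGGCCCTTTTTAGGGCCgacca
Beyond the letters fixed by the search, these members differed in a pair of stem bases and in the last base of the loop. The form shown for H2AC6 and H2BC21 was the most frequent, in 15 members. After the stem-loop, the annotated transcripts that hold it ran on for 1114 to 1128 bases in H2AC6, 39 in H2BC5, 1729 in H2BC21, 18 to 1655 in H4C8 and 194 to 1167 in H4C14. In 22 members at least 1 such transcript ran on for 100 bases or more, and in 6 none did. Transcripts of these members that lack the stem-loop were not measured. In 36 no stem-loop was found, among them 4 with no transcript in that release (H2AC18, H2AC19, H3C2 and H3C3). Others of the 36 have an annotated transcript that stops with the coding sequence, such as H2BC12 (381 exon and 378 coding bases) and H1-2 (642 and 639). There the search could not find a stem-loop whether or not the gene has one.

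Promoters are shown for 3 members of different families or clusters that shared the direction of change in T24. RefSeq windows (GRCh38.p14) of 250 bases before to 50 after the start were available for 59 of the 64 members. Capitals mark matches, on either strand, of TATAAA (the TATA box), CCAAT (bound by the factor NF-Y), AAACACA (the H1 box) or ATTTGCA (the first bases of the octamer of H2B promoters), and matches that overlap run together.
H1-2, chr6:26056421-26056720, minus strand: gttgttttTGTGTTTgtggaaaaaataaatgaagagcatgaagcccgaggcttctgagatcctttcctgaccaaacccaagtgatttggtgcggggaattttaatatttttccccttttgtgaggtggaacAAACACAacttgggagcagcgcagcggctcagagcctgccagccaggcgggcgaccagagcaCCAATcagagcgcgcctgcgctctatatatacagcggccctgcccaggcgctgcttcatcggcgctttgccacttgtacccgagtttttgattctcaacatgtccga
H2BC12, chr6:27146809-27147108, minus strand: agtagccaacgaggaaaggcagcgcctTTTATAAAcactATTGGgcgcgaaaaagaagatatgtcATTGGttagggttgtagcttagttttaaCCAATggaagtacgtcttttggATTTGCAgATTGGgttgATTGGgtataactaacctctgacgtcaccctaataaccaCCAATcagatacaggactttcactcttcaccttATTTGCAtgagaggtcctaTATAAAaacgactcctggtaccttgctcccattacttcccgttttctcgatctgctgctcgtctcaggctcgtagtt
H2BC21, chr1:149886633-149886932, minus strand: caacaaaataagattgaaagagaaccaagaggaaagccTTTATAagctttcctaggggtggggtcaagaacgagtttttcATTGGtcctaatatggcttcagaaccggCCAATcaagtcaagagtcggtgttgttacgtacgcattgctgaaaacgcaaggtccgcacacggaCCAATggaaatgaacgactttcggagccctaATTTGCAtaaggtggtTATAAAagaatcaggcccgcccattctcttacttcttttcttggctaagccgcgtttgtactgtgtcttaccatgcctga
Among the 59 members, TATAAA was in 39 windows (66.1%, against 12% of all 27305 windows) and CCAAT in 49 (83.1% against 35.7%). The octamer start ATTTGCA was in 25 (42.4% against 4.23%), 13 of them H2B and 10 H2A genes, and the H1 box AAACACA was in 8 (13.6% against 5.76%), including all 5 H1 genes. CCAAT was in 1 of 11 H4 windows. The E2F site starts TTTGGCG and TTTCCCG were in 1 and 7 members (1.69% and 11.9%, against 1.92% and 4.34%). In 10 pairs of an H2A and an H2B gene the starts lie 194 to 248 bases apart and the windows overlap. There 1 match can count for both genes, so the 59 windows are not all separate. A match is a description of these letters, not a mapped binding site.

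Libraries held 31291047 to 102798895 counts, of which the members took 1056 to 26871, and 50 to 60 of the 64 members had at least 1 count in a given library. Levels are CPM (counts scaled to a common library size of 1e+06 with TMM factors of 0.902 to 1.12). FTO was 35.2 ± 1.25 CPM in T24 shNC and 25.5 ± 1.09 in T24 shFTO (SD, n = 3 each; log2 change -0.46, SE 0.05, adjusted p = 1.94e-07, edgeR's quasi-likelihood test), but 46.2 ± 1.01 in RT4 shNC and 68.9 ± 3.29 in the libraries labelled RT4 shFTO (0.58, SE 0.05, adjusted p = 4.19e-09). FTO thus went against the label in RT4, and every direction below is as labelled. Markers of other cell types also moved with the groups. In T24 shFTO, 16 of 17 hepatocyte markers reached 10 CPM, and the list summed to 30398 to 31593 CPM against 7.51 to 10.2 in T24 shNC. In RT4 shFTO, 9 of 12 fibroblast and mesenchymal markers reached 10 CPM, and the list summed to 10833 to 11200 CPM against 1.45 to 1.81 in RT4 shNC. In T24 the sum of the same list went the other way. It was 1026 to 1066 CPM in shNC, with COL1A1 and COL5A1 at 10 CPM or more. In T24 shFTO it was 29.4 to 33.7 CPM, with PDGFRB at 10 CPM or more. The 16 urothelial markers summed to 1407 to 1485 CPM in T24 shNC, 265 to 274 in T24 shFTO, 21.4 to 24.1 in RT4 shNC and 184 to 191 in RT4 shFTO. KRT7, PPARG, ELF3 and PSCA reached 10 CPM in T24 shNC and no urothelial marker did in RT4 shNC, while UPK1B and UPK3A were at 0 in both and KRT20 and KRT5 in RT4 shNC. GATA3, PPARG, FOXA1 and ELF3 reached 10 CPM in T24 shFTO, and KRT7, PPARG and TP63 in RT4 shFTO. The part of all these markers in the results below was not tested. In bulk RNA, fewer cells of a type and less RNA per cell cannot be told apart.

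The histone genes as a whole were far lower in T24 shFTO than in any other group. The 64 members summed to 357, 352 and 354 CPM in the T24 shNC libraries and to 29.97, 32.21 and 29.98 in the T24 shFTO libraries, 8.67% of the control mean. In RT4 the sums were 226, 245 and 241 in shNC and 211, 206 and 212 in shFTO, 88.4% of the control mean. The 3 T24 shFTO libraries stood apart from the other 9, while the RT4 groups were separated by a gap smaller than the range among the controls. Within batches (a number from 1 to 3 in the labels, with 1 library of each group in each), the log2 ratio of the sums was -3.58, -3.45 and -3.56 in T24 and -0.10, -0.25 and -0.18 in RT4. Without H2BC12, the member with the most counts, the T24 sum was 9.35% and the RT4 sum 94.3% of control.

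Of the 64 members, 42 had enough counts to be tested. Counts in a single group were enough to pass, so H3C3, H3C6 and H3C8 were tested only through groups where they were high. In T24, 37 fell and 2 rose with shFTO, and 3 were not called (H2AC20, H3C13 and H3C8). A call is an adjusted p under 0.05 in edgeR's test, corrected by the Benjamini-Hochberg method across the 23070 tested genes. The share of members that fell was 88.1% and that rose 4.76%, against 40.8% and 37.2% of all tested genes, of which 78.0% were called. The members' median log2 change was -3.11, against -0.05 over all tested genes, and 36 of the 37 fell by 2-fold or more, as did 27.5% of all genes. In RT4, 17 members rose, 10 fell and 15 were not called. There 64.3% of members were called, against 78.6% of all genes (38.6% higher, 40.0% lower), 13 members changed by 2-fold or more (48.0% of all genes did), and the median log2 change was 0.14 against 0.00. Values did not overlap between shFTO and shNC for 39 of 42 members in T24 and for 31 in RT4, against 79.6% and 79.9% of all genes. The plot of levels by library shows the 10 members that reached 10 CPM in a group. H2AC18, H2AC19, H4C8, H4C14 and H4C15 did so in T24 shNC alone, a choice that favoured a fall in T24.

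**Figure D1:**
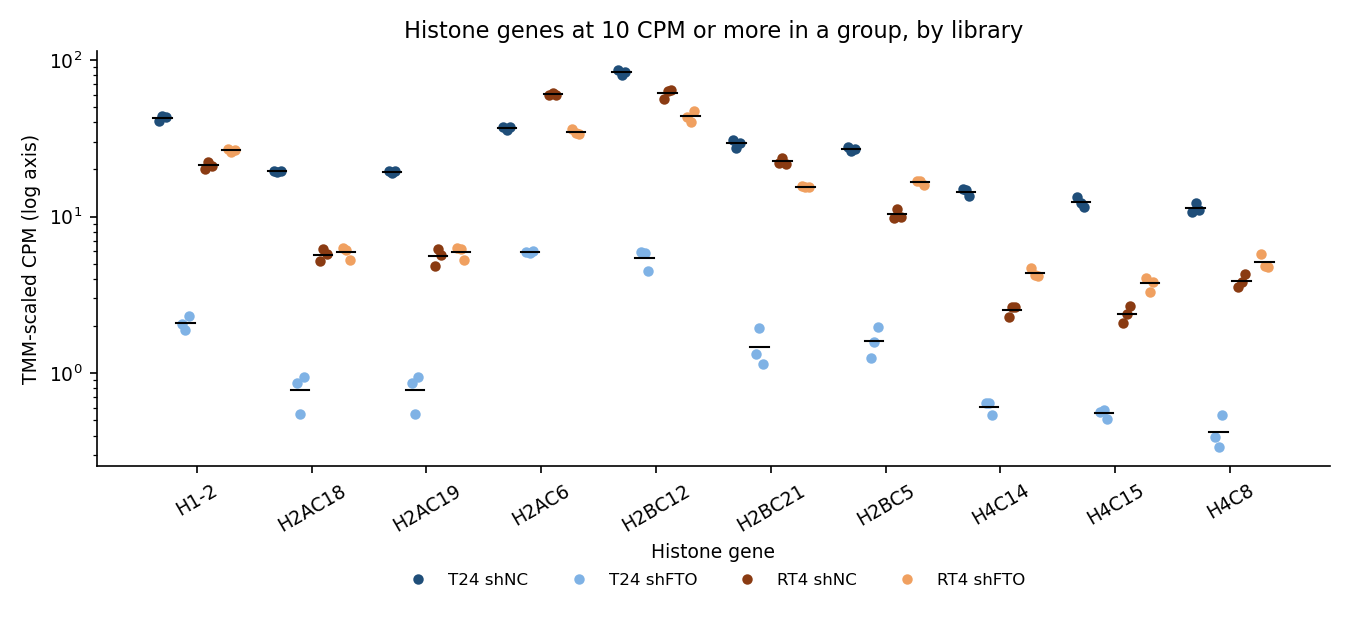
TMM-scaled CPM on a log axis for the 10 histone genes with a group mean of 10 CPM or more; each point is 1 library and each bar the mean of 3. For every one of the 10, the 3 T24 shFTO points lie below the other 9 libraries. Levels are compared between groups, not between genes.

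The H1 family holds the linker histones that bind DNA between nucleosomes. H1-2 (chromosome 6, 26055740 to 26056470, GRCh38.p14) was 41.02, 44.1 and 43.5 CPM in T24 shNC and 2.05, 1.89 and 2.30 in T24 shFTO. In RT4 it was 20.3, 22.3 and 21.02 CPM in shNC and 27.1, 25.8 and 26.7 in shFTO. No groups overlapped: the T24 controls were highest, the libraries labelled RT4 shFTO next, then the RT4 controls, and T24 shFTO lowest. H1-2 thus fell in T24 (log2 change -4.36, SE 0.08, adjusted p = 1.07e-17, edgeR) and rose slightly in RT4 (0.32, SE 0.06, adjusted p = 0.0001). The other tested linker gene, H1-4, stayed under 1 CPM in every group, fell in T24 (-1.34, adjusted p = 0.0101) and was not called in RT4 (0.46, adjusted p = 0.251).

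H2A and H2B form the dimers that flank the H3-H4 core of a nucleosome. All 9 called H2A members fell in T24, of 10 tested, while in RT4 2 rose and 2 fell. Of all genes, 40.8% fell in T24, and 38.6% rose and 40.0% fell in RT4. H2AC6 (chromosome 6, 26124172 to 26124690) was 37.5, 35.9 and 37.6 CPM in T24 shNC, 5.91, 5.89 and 6.07 in T24 shFTO, 59.8, 61.4 and 60.001 in RT4 shNC and 36.2, 34.0 and 33.7 in RT4 shFTO. It was highest in the RT4 controls, and it fell in both lines (T24 -2.63, SE 0.05, adjusted p = 3.70e-17; RT4 -0.80, SE 0.04, adjusted p = 1.98e-11). H2AC6 was the one member of the 10 whose RT4 controls lay above the T24 controls.

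H2AC18 (chromosome 1, 149842218 to 149842750) was 19.6, 19.3 and 19.6 CPM in T24 shNC, 0.861, 0.549 and 0.947 in T24 shFTO, 5.19, 6.21 and 5.76 in RT4 shNC and 6.30, 6.16 and 5.25 in RT4 shFTO. It fell in T24 (-4.61, SE 0.15, adjusted p = 4.78e-14), and the RT4 groups overlapped (0.04, adjusted p = 0.938). H2AC19 (chromosome 1, 149851061 to 149851594) gave nearly the same numbers, with log2 changes of -4.60 and 0.08. Counts of H2AC18 and H2AC19 differed by at most 16 in a library and were equal in 4, so their reads may be shared. They are taken as 1 observation, although their sequences were not compared. H2AC17 went the other way in the lines, from 0.981 ± 0.256 to 0.632 ± 0.061 CPM in T24 (-0.65, adjusted p = 0.0239) and from 0.452 ± 0.014 to 1.05 ± 0.061 in RT4 (1.21, adjusted p = 0.000209; SD, n = 3). Its T24 call was lost under 7 alternatives, with adjusted p from 0.0524 to 0.155.

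Every tested H2B member fell in T24, 13 of 13 (40.8% of all genes did). In RT4, 4 H2B members rose and 6 fell (38.6% and 40.0% of all genes). H2BC12 (chromosome 6, 27138293 to 27146858) was 86.8, 80.7 and 84.2 CPM in T24 shNC, 5.93, 5.86 and 4.51 in T24 shFTO, 56.1, 63.6 and 64.6 in RT4 shNC and 43.3, 40.3 and 47.5 in RT4 shFTO. The order was T24 controls, RT4 controls, RT4 shFTO and T24 shFTO, with no overlap between neighbours. It fell in both lines (T24 -3.95, SE 0.09, adjusted p = 5.33e-15; RT4 -0.49, SE 0.07, adjusted p = 2.09e-05).

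H2BC21 (chromosome 1, 149884459 to 149886682), known for a long polyadenylated transcript, was 30.8, 27.6 and 29.6 CPM in T24 shNC, 1.33, 1.95 and 1.15 in T24 shFTO, 22.1, 23.8 and 21.7 in RT4 shNC and 15.6, 15.5 and 15.5 in RT4 shFTO. It kept the same order of groups as H2BC12 and fell in both lines (T24 -4.34, SE 0.12, adjusted p = 2.98e-15; RT4 -0.54, SE 0.09, adjusted p = 4.08e-05). H2BC5 (chromosome 6, 26158121 to 26171349) was 27.9, 26.3 and 26.9 CPM in T24 shNC, 1.25, 1.59 and 1.97 in T24 shFTO, 9.87, 11.1 and 9.95 in RT4 shNC and 16.8, 16.9 and 15.9 in RT4 shFTO. Unlike them, H2BC5 was higher in the libraries labelled RT4 shFTO than in their controls (T24 -4.09, SE 0.12, adjusted p = 6.88e-15; RT4 0.68, SE 0.10, adjusted p = 6.51e-06).

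Just under the 10 CPM limit, H2BC11 had the lowest fitted change of any member in T24, and H2BC4 fell in RT4 as well. H2BC11 was 9.05, 10.1 and 9.9996 CPM in T24 shNC, 0.157, 0.275 and 0.307 in T24 shFTO, 2.39, 2.33 and 2.16 in RT4 shNC and 5.23, 4.92 and 6.14 in RT4 shFTO (T24 -5.34, SE 0.21, adjusted p = 3.24e-13; RT4 1.25, SE 0.15, adjusted p = 1.21e-06). H2BC4 was 10.2, 10.9 and 8.14 CPM in T24 shNC, 0.861, 0.488 and 0.794 in T24 shFTO, 9.48, 9.06 and 10.1 in RT4 shNC and 2.06, 3.68 and 2.82 in RT4 shFTO (T24 -3.73, SE 0.22, adjusted p = 9.59e-11; RT4 -1.74, SE 0.19, adjusted p = 2.54e-07). The controls of both lines overlapped for H2BC4 and were well apart for H2BC11. H2BC8 and H2BC9 also fell by more than 2-fold in RT4 (-1.25 and -1.90, adjusted p = 0.000502 and 0.000681), from control means of 1.54 and 0.759 CPM.

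H3 carries most of the tail positions that are methylated and acetylated in chromatin. Of 9 tested H3 members, 7 rose and 1 fell in RT4, with a median log2 change of 1.42, while in T24 5 fell and 2 rose. Of all genes, 38.6% rose and 40.0% fell in RT4, and 40.8% fell and 37.2% rose in T24. The H3 counts include H3C3, H3C6 and H3C8, which were tested only through groups where they were high. H3C10 (chromosome 6, 27810051 to 27810536) was 3.73, 3.63 and 4.09 CPM in T24 shNC, 0.391, 0.366 and 0.435 in T24 shFTO, 3.67, 3.91 and 3.92 in RT4 shNC and 5.20, 5.91 and 5.90 in RT4 shFTO. The controls of both lines overlapped, and from that level H3C10 fell in T24 (-3.25, SE 0.17, adjusted p = 1.47e-11) and rose in RT4 (0.56, SE 0.13, adjusted p = 0.000779). H3C2 had the same pair of directions, at 1.28 ± 0.356 CPM in T24 shNC, 0.27 ± 0.104 in T24 shFTO, 0.252 ± 0.09 in RT4 shNC and 1.32 ± 0.284 in RT4 shFTO (SD, n = 3; T24 -2.21, adjusted p = 2.73e-05; RT4 2.34, adjusted p = 5.87e-06).

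H3C6 and H3C3 were the members that rose in both lines, from controls close to no counts. They passed the low-count filter only through shFTO libraries, which favoured a rise. H3C6 (chromosome 6, 26224178 to 26227473) was 0.057, 0 and 0.043 CPM in T24 shNC, 0.372, 0.305 and 0.563 in T24 shFTO, 0.092, 0 and 0 in RT4 shNC and 6.83, 8.43 and 7.58 in RT4 shFTO. All 3 RT4 shFTO libraries were far above the other 9. From 4 counts over the controls, the ratio of shFTO to shNC after scaling was 12 in T24 (95% exact counting interval 4.40 to 45.6) and 463 in RT4 (180 to 1703). H3C3 was 0.456, 0.679 and 0.418 CPM in RT4 shFTO, with 57 counts against 4 in the controls (ratio 31.3, interval 11.6 to 119), and had 28 counts against 3 in T24 (ratio 8.76, interval 2.71 to 45.0). Both genes were called higher in both lines (H3C6 adjusted p = 0.000492 in T24 and 4.44e-10 in RT4; H3C3 0.00146 and 1.63e-06).

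H3C8 had 0 counts in all 6 T24 libraries and 10, 40 and 37 counts in RT4 shNC against 0, 1 and 2 in RT4 shFTO. It fell in RT4, where the controls were 13.2 times shFTO after scaling (interval 4.37 to 65.3; adjusted p = 0.000467). H3C8 passed the low-count filter only through RT4 shNC, which favoured that fall. Intervals here cover counting error only. The summed H3 level rose from 5.12 ± 0.114 to 16.6 ± 1.10 CPM in RT4 on these values, and 46.0% of the latter was H3C6. Without H3C6 the RT4 sums were 5.09 ± 0.155 and 8.95 ± 0.42 CPM. H3C14 and H3C15 have the same coding sequence and differed by at most 1 count in a library, so their equal changes (-2.99 in T24; 1.42 and 1.36 in RT4) are 1 observation.

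H4 pairs with H3 in the nucleosome core. All 8 tested H4 members fell in T24 (40.8% of all genes did), while 3 rose and 1 fell in RT4 (38.6% and 40.0% of all genes). H4C8 (chromosome 6, 26285126 to 26285534) was 10.7, 12.3 and 11.1 CPM in T24 shNC, 0.391, 0.336 and 0.538 in T24 shFTO, 3.53, 3.84 and 4.28 in RT4 shNC and 5.76, 4.86 and 4.75 in RT4 shFTO. It fell in T24 (-4.74, SE 0.18, adjusted p = 2.30e-13). In RT4 its groups did not overlap and it was called higher (0.39, SE 0.14, adjusted p = 0.0157), but the call was lost with upper-quartile scaling (0.29, adjusted p = 0.06), with no low-count filter (0.30, adjusted p = 0.116), with batch as a block (0.39, adjusted p = 0.0542), and without replicate 1 of either RT4 group (adjusted p = 0.0823 and 0.0624).

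H4C14 (chromosome 1, 149832657 to 149833052) was 14.9, 14.8 and 13.6 CPM in T24 shNC, 0.646, 0.641 and 0.538 in T24 shFTO, 2.30, 2.66 and 2.63 in RT4 shNC and 4.69, 4.21 and 4.21 in RT4 shFTO. It fell in T24 (-4.56, SE 0.14, adjusted p = 2.16e-14) and rose in RT4 (0.78, SE 0.12, adjusted p = 1.65e-05). H4C15 (chromosome 1, 149844488 to 149861240) was 13.4, 12.3 and 11.5 CPM in T24 shNC, 0.567, 0.580 and 0.512 in T24 shFTO, 2.09, 2.40 and 2.68 in RT4 shNC and 4.07, 3.31 and 3.84 in RT4 shFTO (T24 -4.48, SE 0.17, adjusted p = 1.79e-13; RT4 0.64, SE 0.14, adjusted p = 0.000499). H4C14 and H4C15 have the same coding sequence, so their reads may be shared, and the RefSeq span of H4C15 also holds H2AC19 and H3C15. H4C12 fell in both lines (-2.02 and -0.94, adjusted p = 1.53e-05 and 0.00246). It has the same coding sequence as H4C11, so reads of H4C12 and H4C11 may be shared too.

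In T24, shFTO was 5.33% of control for H1, 13.4% for H2A, 6.72% for H2B, 26.0% for H3 and 7.03% for H4. In RT4 it was 69.5% for H2A and 79.5% for H2B, but 127% for H1, 132% for H4 and 324% for H3. The H2A value in RT4 rests on H2AC6: without it the other 15 H2A members summed to 51.5 ± 0.536 and 5.87 ± 0.185 CPM in T24 and to 20.9 ± 1.24 and 21.9 ± 1.03 in RT4, where the libraries of both groups overlapped. These sums are descriptions with no test, and the 10 members plotted made up 83.9% of the whole sum in T24 shNC and 64.1% in T24 shFTO.

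The change itself differed between the lines. The difference of the shFTO effects (T24 minus RT4) was below 0 and called for 33 of 42 members, or 78.6%, and above 0 and called for none, against 38.7% and 36.3% of all genes (75.0% called either way). With limma-voom, 1 member was called above 0. The median difference was -3.39 on the log2 scale, against -0.06 over all genes. Of the members, 15 fell in T24 and rose in RT4 (H1-2, H2AC11, H2AC17, H2BC5, H2BC7, H2BC11, H2BC17, H3C2, H3C10, H3C12, H3C14, H3C15, H4C8, H4C14 and H4C15). Another 9 fell in both (H2AC6, H2AC25, H2BC4, H2BC8, H2BC9, H2BC12, H2BC15, H2BC21 and H4C12; the RT4 call of H2BC15 was lost under 6 alternatives), and 13 fell in T24 and were not called in RT4. The fitted change was smaller (more negative) in T24 than in RT4 for 40 of 42, the exceptions being H2AC20 and H3C8. How many of all tested genes had these pairs of calls, or this order of changes, was not computed. The counts of members with them are therefore a description only.

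**Figure D2:**
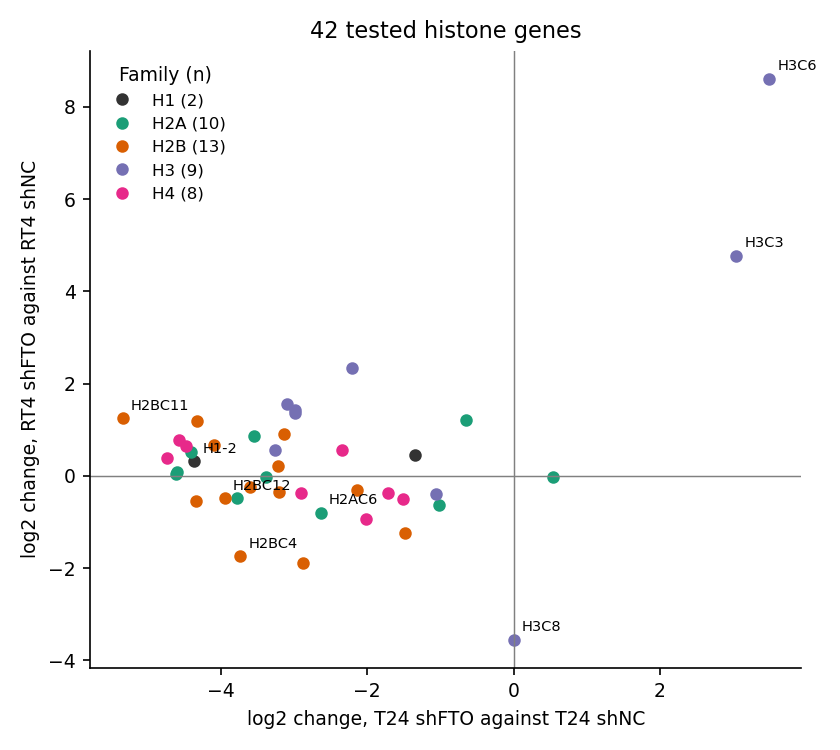
Fitted log2 change with shFTO in T24 (horizontal axis) and RT4 (vertical axis) for the 42 tested histone genes, 1 point per gene, coloured by family; lines mark 0. Most points lie left of 0 at -1 or below with RT4 values around 0, and H3C3 and H3C6, whose controls held 3 or 4 counts, lie at the upper right.

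The control libraries of the lines already differed. In T24 shNC against RT4 shNC, 23 members were higher and 3 lower of 42 (median log2 difference 0.98, also with H3C8 at its bound), against 40.3% and 39.7% of all genes, of which 80.1% were called. H2BC11 was 2.09 higher on the log2 scale in T24 controls (adjusted p = 1.53e-09), H4C14 2.51 (adjusted p = 4.82e-12) and H1-2 1.01 (adjusted p = 5.81e-11), and H2AC6 was 0.71 lower, as a log2 difference of -0.71 (adjusted p = 9.06e-11). H3C8, at 0 counts in T24, was at least 13.7-fold lower there with 3 counts set over the group as the floor. Between the shFTO groups the order was turned: 37 members were lower in T24 shFTO than in RT4 shFTO and 1, H2AC20, was higher (median -2.12), against 39.7% and 37.8% of all genes, of which 77.5% were called. All of these comparisons use the same 4 groups, so they are not independent of each other. Across groups, 35 of 42 members had their lowest mean in T24 shFTO. For 28 of 42, and for all 10 members that reached 10 CPM, every T24 shFTO library was below every other library. The shares of all tested genes with these patterns were not computed, and the 10 were chosen by their level. These counts are therefore a description only.

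Members fell in T24 in every histone gene cluster. They lie in 3 clusters on chromosome 6 (26017032 to 26285534 with 30 members, 27132316 to 27147562 with 5, and 27807479 to 27893891 with 15), 2 on chromosome 1 (149782689 to 149887965 with 11, and 228457364 to 228458558 with 2) and 1 gene, H4C16, on chromosome 12 (RefSeq GRCh38.p14). In T24, 13 of 16 tested members fell in the first chromosome 6 cluster, 4 of 4 in the second and 9 of 9 in the third, and 8 of 10 and 2 of 2 in the chromosome 1 clusters. H4C16 fell too (-1.72, adjusted p = 0.0127). Of all tested genes 40.8% fell in T24, so the cluster of 2 members and the single gene carry little weight. Both risers, H3C3 and H3C6, lie in the first chromosome 6 cluster. Summed levels in T24 shFTO were 5.52% of control in the larger chromosome 1 cluster, 9.82%, 6.26% and 20.1% in the chromosome 6 clusters in that order, and 41.8% in the smaller chromosome 1 cluster.

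**Figure D3:**
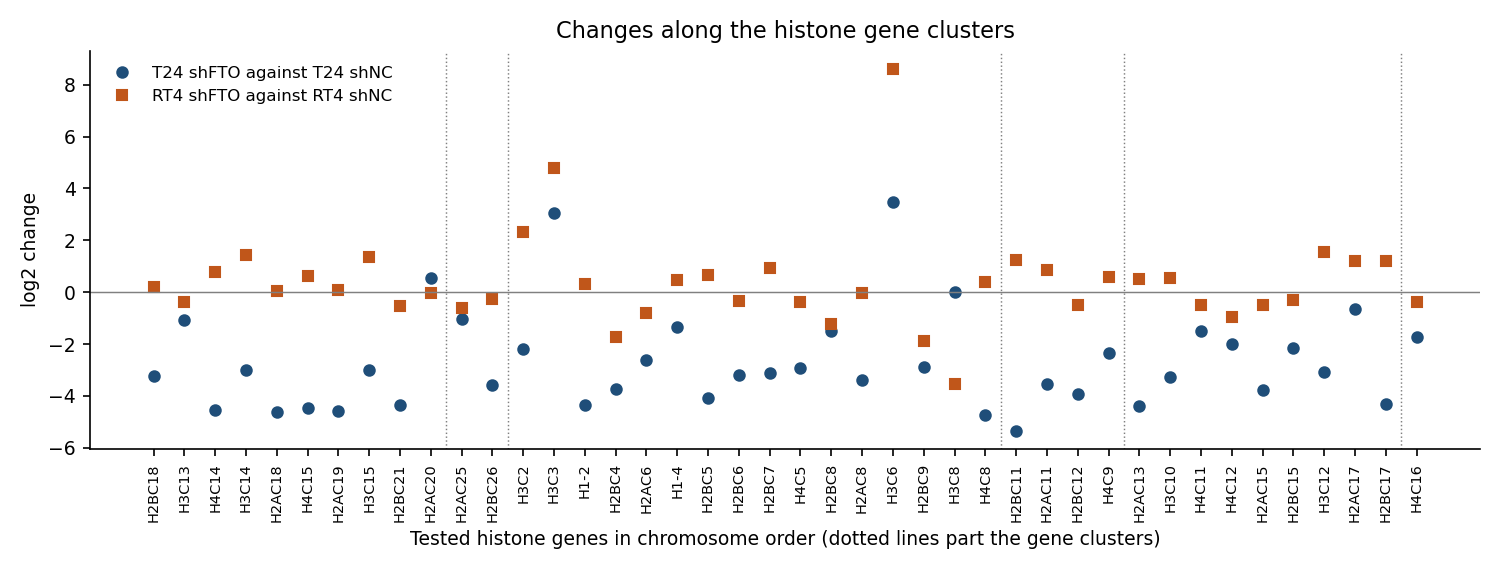
Fitted log2 change with shFTO in T24 (circles) and RT4 (squares) for the 42 tested histone genes in chromosome order, chromosome 1 first, then 6 and 12; dotted lines part the clusters. Low T24 values occur in every cluster, and RT4 values scatter on both sides of 0 within the larger clusters.

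H2A and H2B genes often share a promoter region and are transcribed away from each other. The members held 10 such pairs, with 194 to 248 bases between the starts, and 7 had both genes tested. In RT4 both genes of a pair had a fitted change of the same sign in 7 of 7 pairs, called or not, and in T24 both were below 0 in 6 of 7. H2AC11 and H2BC11 changed by -3.54 and -5.34 in T24 and by 0.87 and 1.25 in RT4, and H2AC6 and H2BC4 by -2.63 and -3.73 in T24 and by -0.80 and -1.74 in RT4. The exception in T24 was H2AC20 (0.54, adjusted p = 0.223) beside H2BC21 (-4.34). H2AC20 held 6 to 45 counts per library, and its RT4 change of -0.03 changed sign under some alternatives. The RT4 change of H2AC8, the partner of H2BC8, was also -0.03, with means of 0.844 CPM in shNC and 0.85 in shFTO. The signs of these changes in RT4 carry no weight. Since 37 of 42 tested members fell in T24, shared signs there do not set the pairs apart.

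Members known also as polyadenylated transcripts were listed with earlier results of these data known. The 12 listed are also the 12 members with the highest group means, so the choice fixed their share of the counts, and their sums beside those of the other members are a description only. They summed to 317 ± 4.22 CPM in T24 shNC, 20.7 ± 0.131 in T24 shFTO, 208 ± 8.86 in RT4 shNC and 170 ± 3.94 in RT4 shFTO (SD, n = 3). The other 52 members summed to 37.7 ± 1.75, 10.1 ± 1.36, 29.5 ± 1.18 and 39.4 ± 1.89 CPM. In T24 both sums were lower in shFTO, at 6.52% and 26.7% of control, and in RT4 the first was below control (82.0%) and the other above it (134%). All 12 of the list fell in T24, and of the 30 tested others 25 fell and 2 rose. In RT4, 6 of the 12 rose and 4 fell, and of the others 11 rose and 6 fell. Of all tested genes, 37.2% rose and 40.8% fell in T24, and 38.6% rose and 40.0% fell in RT4. By the annotated ends shown above, 21 of 22 members whose transcripts run well past the stem-loop fell in T24 (H3C8, at 0 counts, is the other), as did all 4 tested members without such a transcript and 12 of 16 with no stem-loop found. Only transcripts that hold the stem-loop were measured, so the 4 may have other, longer transcripts. H2BC5, one of the 4, is also on the list of polyadenylated members. The last class includes genes annotated no further than the coding sequence, so it is not a class of genes without a stem-loop. RNAs that end without a poly(A) tail, taken as a measure of untailed carry-over, summed to 10.6 ± 1.52 CPM in T24 shNC and 7.85 ± 0.969 in T24 shFTO (73.9%), and to 17.5 ± 1.73 and 16.3 ± 1.11 in RT4. Only 5 of these 25 could be tested. The signal recognition particle RNAs RN7SL1 and RN7SL2 held most of the list's counts in every library, so the sum largely follows them. RN7SL2 varied within a group, at 59, 186 and 74 counts in the T24 shNC libraries. RN7SL1 (the signal recognition particle RNA) fell in T24 (-0.43, adjusted p = 0.0114) and was not called in RT4 (-0.21, adjusted p = 0.153), and RMRP (the RNA of RNase MRP) fell in T24 (-1.69, adjusted p = 0.0171) and was not called in RT4 (1.02, adjusted p = 0.171). RN7SK, an inhibitor of transcription elongation, was at -0.88 in T24 (adjusted p = 0.0925) and rose in RT4 (1.06, adjusted p = 0.0302), as did SNORD3A (3.39, adjusted p = 2.41e-05; T24 -0.52, adjusted p = 0.307). The calls of RN7SL1 and RMRP in T24 and of RN7SK in RT4 were lost under 2, 4 and 5 alternatives. Calls were gained for RN7SL1 in RT4 under 1 alternative (lower, adjusted p = 0.0377), for RMRP in RT4 under 2 (higher, adjusted p = 0.0341 and 0.0354) and for RN7SK in T24 under 3 (lower, adjusted p = 0.00525 to 0.0401).

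The 22 members that could not be tested had between 1 and 75 counts over all 12 libraries and at most 18 in one. Of the 42 tested, 10 reached 10 CPM in a group, 17 reached between 1 and 10, and 15 stayed under 1 CPM in every group. None of the 64 was at 0 in all libraries. With no low-count filter, 3 of the 22 were called in T24 (1 higher and 2 lower) and 6 in RT4 (all higher). The share of all genes called in that fit was not computed, and these calls rest on few counts.

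Variant and replication-independent histone genes, most of which make polyadenylated mRNA while H2AX is known to give both kinds, summed to near the control level in T24 shFTO. The 16 in the table summed to 1849 ± 23.1 CPM in T24 shNC and 1867 ± 52.6 in T24 shFTO, and to 1236 ± 58.2 and 1769 ± 17.8 in RT4. Of 11 tested, 4 rose and 6 fell in T24 and 7 rose and 3 fell in RT4. Over all tested genes, 37.2% rose and 40.8% fell in T24, and 38.6% rose and 40.0% fell in RT4. H3-3B (the H3.3 variant) rose in both lines (0.37 and 0.33, adjusted p = 7.3e-08 and 2.79e-07), as did H2AX, the variant phosphorylated at DNA breaks (0.40 and 1.23, adjusted p = 8.56e-06 and 2.93e-12), and H2AZ2 (0.39 and 1.02, adjusted p = 2.40e-09 and 6.17e-15). H2AZ1 fell in T24 and rose in RT4 (-0.24 and 0.15, adjusted p = 4.76e-05 and 0.00365), as did MACROH2A1 (-0.10 and 1.25, adjusted p = 0.0189 and 1.77e-14), though the RT4 call of the former was lost under 2 alternatives and the T24 call of the latter under 5. MACROH2A2 went from 3.33 ± 0.588 to 61.8 ± 2.17 CPM in T24 (4.204, adjusted p = 2.86e-16) and from 26.7 ± 1.76 to 0.885 ± 0.118 in RT4 (-4.92, adjusted p = 6.72e-16).

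**Figure D4:**
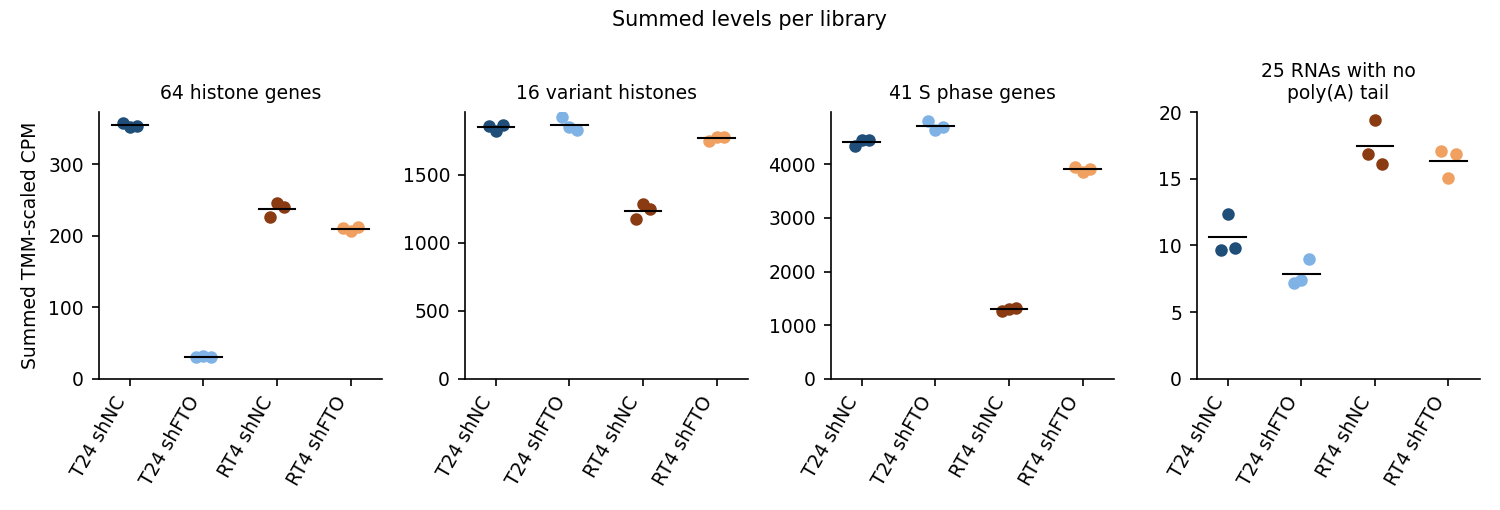
Summed TMM-scaled CPM per library for the 64 histone genes, 16 variant histones, 41 S phase genes and 25 RNAs with no poly(A) tail; points are libraries, bars are means of 3, and each panel has its own axis from 0. The histone genes are low in T24 shFTO, where the variant histones (1867 CPM) and S phase genes (4708 CPM) are near the T24 controls.

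The proteins that cut histone pre-mRNA and degrade histone mRNA changed in both directions. Of 27 tested, 17 rose and 9 fell in T24 (37.2% and 40.8% of all genes did). In RT4, 9 rose and 14 fell (38.6% and 40.0% of all genes). SLBP rose in T24 from 61.2 ± 1.87 to 138 ± 2.57 CPM (1.17, adjusted p = 2.74e-12) and fell in RT4 from 71.8 ± 6.40 to 45.9 ± 1.52 (-0.65, adjusted p = 8.54e-09). FIP1L1, of the cleavage and polyadenylation complex, rose in T24 and fell in RT4 (1.21 and -0.17, adjusted p = 4.01e-15 and 0.000194). The cap-binding subunits diverged, NCBP2 rising in T24 and falling in RT4 (0.67 and -1.38, adjusted p = 5.89e-11 and 4.21e-15) and NCBP1 doing the opposite (-0.26 and 1.00, adjusted p = 2.76e-06 and 4.43e-14). CPSF2, part of the histone cleavage complex, fell in both (-0.15 and -1.26, adjusted p = 0.00104 and 6.80e-15), its T24 call being lost with no low-count filter (adjusted p = 0.082).

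Among 17 genes for transcription of histone genes, 7 rose and 5 fell in T24 (37.2% and 40.8% of all genes did). In RT4, 9 rose and 8 fell (38.6% and 40.0% of all genes). NPAT, the coactivator of the histone locus body, fell in T24 from 37.3 ± 2.11 to 20.6 ± 0.37 CPM (-0.85, adjusted p = 4.06e-10) and was 20.6 ± 0.847 and 23.9 ± 0.782 CPM in RT4 (0.21, adjusted p = 0.00223), a call lost with upper-quartile scaling and with no low-count filter. NFYA, a subunit of the CCAAT-binding factor, rose in T24 and fell in RT4 (2.89 and -0.26, adjusted p = 1.38e-18 and 1.80e-05), as did COIL, the scaffold of Cajal bodies (1.22 and -0.82, adjusted p = 2.54e-12 and 4.40e-10). E2F1, the S phase activator, fell in T24 and rose in RT4 (-0.67 and 1.97, adjusted p = 7.55e-10 and 6.85e-16), and CCNE2 (cyclin E2) was called in RT4 alone (-0.01 and 1.76, adjusted p = 0.903 and 7.54e-12).

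Of 23 histone chaperones, 14 rose and 6 fell in T24 (37.2% and 40.8% of all genes did). In RT4, 12 rose and 8 fell (38.6% and 40.0% of all genes). RBBP7, which escorts H4, fell in T24 from 464 ± 10.1 to 107 ± 3.02 CPM (-2.12, adjusted p = 6.16e-18) and rose in RT4 (0.16, adjusted p = 0.000534), the latter call being lost under 2 alternatives. CHAF1A, of the assembly factor that follows the replication fork, rose in both (0.98 and 1.39, adjusted p = 7.33e-14 and 1.61e-15). ASF1B, which hands H3-H4 to the assembly factors, fell in T24 and rose in RT4 (-0.70 and 2.57, adjusted p = 4.72e-09 and 2.58e-16), and NAP1L1, a chaperone of H2A-H2B, rose in T24 and fell in RT4 (0.50 and -1.57, adjusted p = 7.32e-09 and 1.99e-15).

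S phase genes had no common direction in T24 and rose almost throughout in RT4. Of 41, 19 rose and 11 fell in T24 (median 0.03) and 39 rose and 1 fell in RT4 (median 1.36). Over all tested genes, 37.2% rose and 40.8% fell in T24, and 38.6% rose and 40.0% fell in RT4. They summed to 4415 ± 59.1 and 4708 ± 87.3 CPM in T24 and to 1299 ± 32.6 and 3905 ± 49.6 in RT4. PCNA, the replication clamp, was 191 ± 8.76 and 194 ± 3.50 CPM in T24 (0.02, adjusted p = 0.616, but -0.09 and adjusted p = 0.0353 with upper-quartile scaling) and 41.2 ± 0.343 and 201 ± 2.21 in RT4 (2.29, adjusted p = 3.32e-18). MKI67, a marker of cycling cells, rose in both (1.14 and 3.63, adjusted p = 4.62e-14 and 6.56e-20), as did CDC6 (0.30 and 2.82, adjusted p = 1.92e-06 and 2.69e-18) and RRM2 (0.26 and 2.46, adjusted p = 7.44e-06 and 2.84e-18). The difference between these lists and the histone genes was not tested.

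Of 14 protein-coding genes between the first and last histone gene of chromosome 6 that are not histone genes, 12 were tested. Of these, 4 rose and 6 fell in T24 (37.2% and 40.8% of all genes did). In RT4, 2 rose and 9 fell (38.6% and 40.0% of all genes). They summed to 330 ± 5.6 and 296 ± 1.93 CPM in T24 (89.8% of control) and to 591 ± 14.6 and 461 ± 2.20 in RT4 (78.0%). BTN3A2 and BTN3A3, butyrophilins of a family that regulates T cells, fell in T24 (-1.53 and -2.21, adjusted p = 2.58e-15 and 2.64e-14) and rose in RT4 (1.80 and 1.20, adjusted p = 8.99e-17 and 5.46e-12). PRSS16 and ZNF322 rose in T24 (0.47 and 0.55, adjusted p = 0.000866 and 1.81e-08) and fell in RT4 (-7.09 and -1.26, adjusted p = 2.31e-15 and 2.24e-13).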

How the data were processed

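RNA was taken with Trizol, poly(A)-selected and sequenced as paired ends of 150 bases, per the labels' protocols. The authors deposited whole-number counts per gene; per the submitters' processing notes the tools were fastp 0.20.0, STAR 2.7.9a and featureCounts 2.0, and builds mm39, GRCh38 and hg38 are named without a role. How strand and multiply aligned reads were treated, and which annotation was used, is not given in the sources used here, so reads of near-identical or overlapping histone genes may have been shared or dropped.

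Groups follow the labels. The members and lists were chosen with earlier results of these data known. Counts were scaled with TMM, filtered with filterByExpr by group (23070 genes left) and fitted with edgeR 4.0.16 (R 4.3.3; robust quasi-likelihood with 8 residual degrees of freedom over 4 groups, a common coefficient of biological variation of 0.0768 and a prior count of 0.125). Benjamini-Hochberg adjustment ran across all genes tested, with calls under 0.05. An SE is the log2 change over the root of its F statistic. Where a group had 0 counts, 3 counts over the group gave a bound, and ratios from 3 or 4 counts have an exact interval (scipy 1.17.1).

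Labels give each library a batch number equal to its replicate number, which pairs the libraries. Residuals of same-numbered shFTO and shNC libraries correlated at 0.101, -0.0357 and 0.0192 for T24 and at -0.0977, -0.022 and -0.02 for RT4. No block was in the fit reported, since no text states one. Replicate pairs differed by more than sampling noise (chi-squared per degree of freedom 5.47 to 16.3). The fit was tested on simulated data.

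Named genes are the members at 10 CPM or more in a group, FTO, some genes always named (SLBP, NPAT, PCNA, MKI67, H2AZ1, H3-3B and H2AX; 1 other is not reported here), and of each other list the 4 with the smallest p in either line. Other members named were chosen after their values were seen. Alternatives were RLE and upper-quartile scaling, DESeq2 1.42.0, limma-voom (limma 3.58.1), no filter, at least 1 CPM in 3 libraries, fits of only the groups compared, a batch block, thinning to 31291047 counts, a 2-fold limit and leaving out each library. Summing genes with the same coding sequence, and H2AC18 with H2AC19, was added after the data were seen. It replaced summing genes with identical RefSeq proteins, which was not run. Sequences and positions are from RefSeq GRCh38.p14, and transcript ends from GENCODE release 29.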

Additional observations from a re-analysis of the deposited data

Results flagged for a closer look

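For all 10 histone genes at 10 CPM or more, the change with shFTO differed between the lines by a test of the difference itself, T24 minus RT4 on the log2 scale (edgeR's quasi-likelihood test, adjusted p over 23070 genes, of which 75.0% were called in this contrast). Of the H4 genes, the difference was -5.344 for H4C14 (adjusted p = 8.31e-14), -5.132 for H4C8 (1.90e-12) and -5.117 for H4C15 (9.88e-13). Of the H2B genes, it was -4.767 for H2BC5 (adjusted p = 2.42e-14), -3.798 for H2BC21 (4.13e-13) and -3.453 for H2BC12 (5.41e-13). It was -4.679 for H1-2 (adjusted p = 8.10e-17). Of the H2A genes, it was -4.678 for H2AC19 (adjusted p = 2.10e-12), -4.646 for H2AC18 (1.22e-12) and -1.832 for H2AC6 (1.27e-13). In T24 every shFTO library was below every shNC library for each of the 10. Of these, H2AC18, H2AC19, H4C8, H4C14 and H4C15 reached 10 CPM in T24 shNC alone. Their choice by level thus favoured a fall in T24 and a difference below 0. Reads may also be shared between H2AC18 and H2AC19 and between H4C14 and H4C15. In the RT4 libraries, labelled shFTO although FTO was higher there, 5 of the 10 were higher than control, 3 lower and 2 not called. Hepatocyte markers were high in T24 shFTO. The sums of the fibroblast and urothelial lists were lower in shFTO than in shNC in T24 and higher in RT4. Single markers went both ways. In T24, 4 fibroblast markers rose and 5 fell, and 5 urothelial markers rose and 8 fell. In RT4, 11 fibroblast markers rose and 1 fell, and 6 urothelial markers rose and 4 fell. The part of these markers in the difference between the lines was not tested.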

How the results depend on the processing

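Of 3304 recomputed values of the 59 named genes, 3237 kept their direction and side of the threshold, 43 lost a call with the same direction, 6 gained one and 18 changed sign. Of 354 recomputed counts of members and sums, 340 stayed within 1.5 times or 1 SD and 14 moved. In RT4, a 2-fold limit left 13 members called, 9 higher and 4 lower. The 2 members higher in T24 became 1 with a filter of 1 CPM in 3 libraries and 1 in a fit of only the groups compared. The 3 members lower in T24 than RT4 controls became 5 with no low-count filter and 5 in a fit of only the groups compared. With the 1 CPM filter, which left 26 members, 25 were called between the shFTO groups and 0 were higher there. With limma-voom 1 member had a larger change in T24 than in RT4.

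The log2 ratio of the summed members was -3.707 in T24 and -0.4474 in RT4 with library totals as the only scaling, and -3.419 and -0.08386 without the most abundant member, H2BC12. Upper-quartile scaling moved the median of all genes to -0.16 in T24 and -0.11 in RT4. With batch as a replicate block, pairing the libraries by number, 38 of 42 members were called in T24 and 23 in RT4, and the calls lost were those of H4C8, H2BC15, H2BC7 and H3C12 in RT4 (adjusted p = 0.0542, 0.073, 0.0736 and 0.17) and of H2AC17 in T24 (0.0737). Between controls the block ended the call of H3C13 and gave one for H4C16, and between shFTO groups it ended that of H3C3 (adjusted p = 0.0683, 0.0449 and 0.0693).

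Leaving out 1 library at a time gave 37 to 40 called members in T24 (2 higher throughout, 35 to 38 lower), 24 to 28 in RT4 (15 to 18 higher, 9 to 10 lower), 32 to 34 for the difference (0 higher), 25 to 27 between controls (22 to 24 higher, 3 to 4 lower) and 36 to 39 between shFTO groups (1 higher, 35 to 38 lower). The sums ranged from -3.568 to -3.505 in T24 and from -0.2157 to -0.1429 in RT4.

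The values that changed sign belonged to contrasts near 0 that were not called in the fit reported, and 1 of them was called on the other side of 0. PCNA in T24 was -0.08577 with upper-quartile scaling (adjusted p = 0.0353) and -0.008902 with the 1 CPM filter, and ranged from -0.01565 to 0.06615 with 1 library left out. CCNE2 in T24 was 0.02916 with no filter and ranged from -0.07964 to 0.02735. In RT4, H2AC18 was -0.06738 with upper-quartile scaling and -0.05851 with no filter (range -0.03573 to 0.1148), and H2AC19 was -0.02557 and -0.01862 (range -0.02021 to 0.1578). H2AC20 in RT4 was 0.003891 with RLE scaling and 0.00763 with DESeq2 (range -0.515 to 0.1989). The cause of these shifts was not tested. Members under 1 CPM rest on few counts, and a poly(A)-selected library samples untailed histone mRNA poorly, so their changes are limited by depth and by tail selection.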
